A study of Mus musculus with 6 samples.

Results

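Matrix-binding integrins are the receptors by which cells hold on to collagen, laminin, fibronectin and vitronectin. The genes of 10 integrin chains were followed here, taken as the rows of the deposited table named Itga1, Itga2, Itga5, Itga6, Itgav, Itgb1, Itgb3, Itgb5, Itgb6 and Itgb8, out of 24318 rows in all. The samples were whole livers of C57BL/6 mice, and every mouse, control or knockout, had the genotype VEcadCreERT2/TAK1flox/flox. In such mice the promoter of VE-cadherin (Cdh5), a gene of endothelial cells, drives a Cre recombinase that tamoxifen switches on, and Cre cuts both alleles of Map3k7, the gene of the kinase TAK1. The 3 knockout livers came from mice given tamoxifen and the 3 control livers from mice given none, so deletion and tamoxifen cannot be told apart in any comparison below. Ages, dose and time after tamoxifen are not given in the sources used here.

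Every integrin is a pair of 1 alpha and 1 beta chain, and the pair decides what is bound. The beta chain of Itgb1 pairs with the alpha chains of Itga1 and Itga2 to bind collagen, with that of Itga5 to bind fibronectin and with that of Itga6 to bind laminin. The alpha chain of Itgav pairs with the beta chains of Itgb1, Itgb3, Itgb5, Itgb6 or Itgb8 and binds proteins that carry the Arg-Gly-Asp sequence, among them vitronectin, fibronectin and the latency peptide of TGF-beta. In liver, hepatocytes, stellate cells, sinusoidal endothelium, bile duct cells and leukocytes carry different sets of these pairs, and the alpha v pairs are known as activators of latent TGF-beta in fibrosis.

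Values are FPKM, fragments counted per length of transcript and per total of mapped fragments, which allow levels of different genes to be compared. Total read numbers are unknown. From the spacing of low values, relative depth ran from 0.921 to 1.08, with control 1 as the unit. The livers fell into their groups along the first principal component, which held 64.7% of the variance, with control 3 nearest the knockouts (-34.1, against -49.9 and -50.7 for controls 1 and 2 and 40.5 to 52.8 for knockouts). Control 3 is therefore left out in turn, like every other library, wherever that changes a result. Map3k7 did not check the labels. It measured 8.498, 9.02 and 9.14 FPKM in controls and 9.28, 9.31 and 7.35 FPKM in knockouts, and cells outside the endothelium express it too. In whole liver, fewer cells of a type and less RNA per cell cannot be told apart.

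Of the 10 chains, 4 rose, namely Itgb3, Itga6, Itgav and Itgb1, and 0 fell in the limma test. Itgb3 and Itga6 were about 2.64 and 2.67 times their control means, Itgav 1.98 times and Itgb1 1.49 times. Itga1, Itgb5 and Itga5 did not pass the test, and Itga2, Itgb6 and Itgb8 were too low to be tested. Testing required a mean of 0.5 FPKM over the 6 libraries, and limma on log2(FPKM + 0.5) made a call where p, adjusted by Benjamini-Hochberg over all genes, was under 0.05. So 4 of 7 tested chains were higher, where 14.1% of all 11842 tested genes were higher and 27.0% were called either way. An unadjusted p under 0.05 was reached by 5 chains, all of them upward. Without control 1, and likewise without control 2, 2 chains were called, Itgb3 and Itga6. The median log2 fold change of the 7 was 0.58, against -0.00071 over all tested genes. The knockout libraries lay above all controls for 6 of the 7, an arrangement that 22.4% of tested genes had. No label says that the 3 livers of a group were handled separately, so each p-value rests on a spread between libraries that may be technical. In limma that spread is drawn in part from a trend over all tested genes. The descriptions of knockouts 1 and 3 alone carry a suffix, _no2, whose meaning is not stated.

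**Figure D1:**
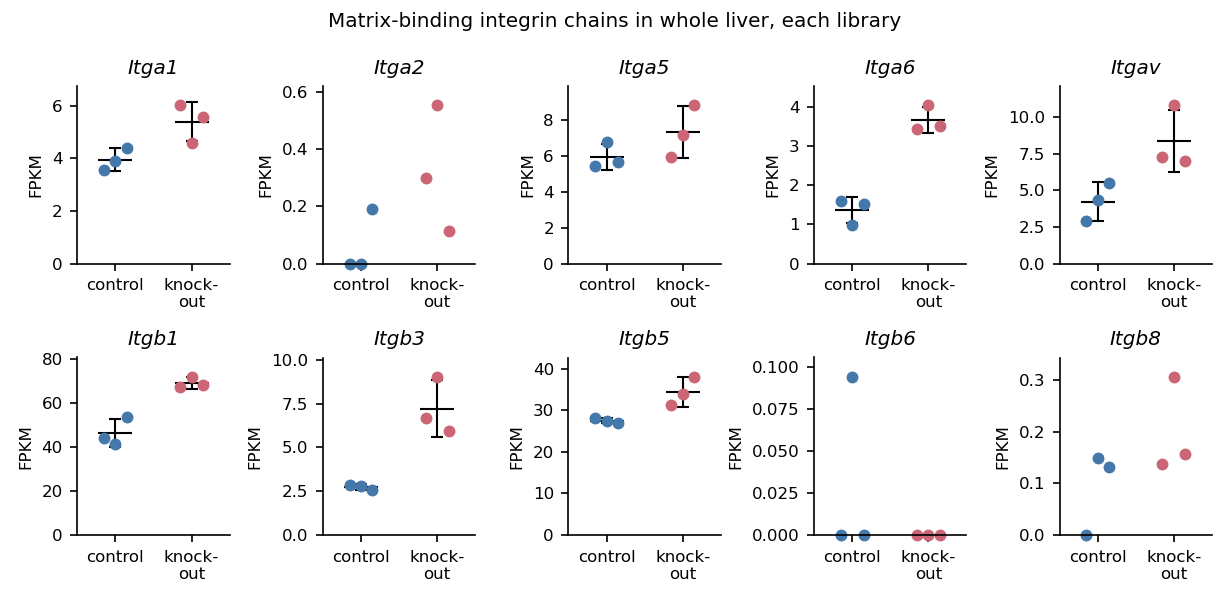
FPKM of the 10 chains in each library (control blue, knockout red; y axes start at 0 and differ between panels), with mean and SD of 3 libraries as black bars for the 7 tested chains. Itga6, Itgav, Itgb1 and Itgb3 stand apart between groups, as do Itga1 and Itgb5, which were not called, and Itga5 overlaps. Itga2, Itgb6 and Itgb8 stay below 1 FPKM in every library.

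Itgb1, the shared beta chain and the most abundant of the set, lies on chromosome 8 (128685654 to 128733200, plus strand, GRCm38); this and the positions below are whole protein-coding genes, exons and introns together. It measured 44.2, 41.4 and 53.7 FPKM in controls and 67.2, 72.1 and 68.2 FPKM in knockouts. All knockouts were above all controls, of which control 3 was the highest. The log2 fold change was 0.58 ± 0.14 (SE; limma adjusted p = 0.0143). The call was lost without control 1 (log2 fold change 0.55, adjusted p = 0.0562), without control 2 (0.50, adjusted p = 0.0707) and when libraries were scaled to equal summed FPKM (0.46, adjusted p = 0.0596). Across all alternatives the adjusted p ran from 0.00712 to 0.0707, and the change was upward in every one.

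Itgav, the alpha chain of the Arg-Gly-Asp receptors, lies on chromosome 2 (83724397 to 83806916, plus strand). It measured 2.87, 4.31 and 5.51 FPKM in controls and 7.30, 10.8 and 7.03 FPKM in knockouts. Control 1 was the lowest and knockout 2 stood above the other 2 knockouts, and the groups did not overlap. The log2 fold change was 0.92 ± 0.26 (SE; limma adjusted p = 0.0266). The call was lost without control 1 (0.70, adjusted p = 0.0892), without control 2 (0.95, adjusted p = 0.0664), without knockout 2, the highest library (0.74, adjusted p = 0.0856), and with equal summed FPKM (0.81, adjusted p = 0.0573). Adjusted p ranged from 0.0174 to 0.0892 over the alternatives.

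Itgb3, the beta chain of the vitronectin receptor and, with the Itga2b chain, of the platelet fibrinogen receptor, lies on chromosome 11 (104608000 to 104670476, plus strand). It measured 2.85, 2.80 and 2.56 FPKM in controls and 6.67, 9.05 and 5.94 FPKM in knockouts. The controls were almost level, and the lowest knockout was well above them. The log2 fold change was 1.24 ± 0.21 (SE; limma adjusted p = 0.00258), and the call held under all 16 alternatives (adjusted p of 0.00194 to 0.0118). Its platelet partner Itga2b measured 1.03, 1.87 and 1.78 FPKM in controls and 3.33, 2.48 and 4.05 FPKM in knockouts. Itga2b was called higher (log2 fold change 0.88 ± 0.27, limma adjusted p = 0.0379), but that call was lost without control 1, control 2, knockout 1 or knockout 3 and under 3 alternatives with all 6 libraries (log2 fold changes of 0.68 to 1.05 over all alternatives).

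Itga6, the laminin-binding alpha chain, lies on chromosome 2 (71745616 to 71858416, plus strand). It measured 1.61, 0.992 and 1.52 FPKM in controls and 3.44, 4.05 and 3.51 FPKM in knockouts. The highest control was less than the lowest knockout, and the spread within each group was small beside the gap. The log2 fold change was 1.17 ± 0.23 (SE; limma adjusted p = 0.00577), and the call held under all 16 alternatives (adjusted p of 0.00447 to 0.0238). Itgb4, the other beta chain that the Itga6 chain can pair with, measured only 0.0663 to 0.308 FPKM in the 6 libraries and was not tested.

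Itga1, the alpha chain of a collagen receptor, lies on chromosome 13 (114953096 to 115101964, minus strand). It measured 3.55, 3.90 and 4.40 FPKM in controls and 6.02, 4.56 and 5.57 FPKM in knockouts. The groups did not overlap, though knockout 2 was close to control 3. Its log2 fold change of 0.40 ± 0.19 (SE; 95% interval -0.033 to 0.83) was not called (adjusted p = 0.155 in limma).

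Itgb5, the second beta chain of the vitronectin receptors and the second most abundant chain here, lies on chromosome 16 (33829665 to 33949338, plus strand). It measured 28.1, 27.5 and 27.1 FPKM in controls and 31.2, 33.9 and 38.2 FPKM in knockouts. All knockouts were above the narrow band of the controls. Its log2 fold change of 0.31 ± 0.13 (SE; 95% interval 0.0075 to 0.61) had a limma adjusted p = 0.118 and was not called. 

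Itga5, the alpha chain of the fibronectin receptor, lies on chromosome 15 (103344286 to 103366763, minus strand). It measured 5.41, 6.76 and 5.63 FPKM in controls and 5.95, 7.17 and 8.81 FPKM in knockouts. The groups overlapped, with control 2 above knockout 1. Its difference on the log2 scale was 0.27 ± 0.20 (SE; 95% interval -0.17 to 0.71; limma adjusted p = 0.348), so a rise of more than 0.71 log2 units lies outside the interval. Itga5 also showed the depth behind such values. Corrected for relative depth, its 6 values were whole multiples of 1 step within 0.06, at 54, 65 and 61 steps in controls and 62, 67 and 81 steps in knockouts. A step is 1 fragment if no smaller unit exists.

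Itga2 and Itgb8 sat on the lowest steps, and Itgb6 had only 1 value above 0. Itga2, the alpha chain of the other collagen receptor, known from platelets and epithelium (chromosome 13, 114833081 to 114932100, minus strand), was listed at 0 in controls 1 and 2 and at 0.192 FPKM in control 3, against 0.298, 0.555 and 0.113 FPKM in knockouts. Those values were 0, 0 and 2 steps in controls and 3, 5 and 1 steps in knockouts. The groups overlapped. A two-sided exact permutation test gave p = 0.2, and 3 against 3 libraries cannot give less than 0.1.

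Itgb8, a beta chain of an activator of latent TGF-beta (chromosome 12, 119158022 to 119238802, minus strand), was listed at 0, 0.149 and 0.133 FPKM in controls and 0.138, 0.307 and 0.156 FPKM in knockouts. Those values were 0, 1 and 1 steps against 1, 2 and 1 steps, with an exact permutation p of 0.2. Itgb6, an epithelial beta chain with the same role (chromosome 2, 60598292 to 60722643, minus strand), was listed above 0 only in control 2, at 0.0945 FPKM. With only 1 value above 0, the method sets that value to 1 step, so its steps measure nothing. For these genes no difference was detectable at this depth, and no fold is given.

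The order of levels was nearly the same in both groups. In controls it ran Itgb1, Itgb5, Itga5, Itgav, Itga1, Itgb3, Itga6 and then the 3 chains near 0. In knockouts Itgav stood above Itga5, and Itgb3 above Itga1. Neighbours whose libraries overlapped were Itga5 and Itgav and then Itgav and Itga1 in controls, and the 3 chains near 0 also overlapped there. In knockouts they were Itgav and Itga5, Itga5 and Itgb3, Itgb3 and Itga1, and Itga2 and Itgb8, while Itgb6 was at 0 in all knockouts. Itgb1 exceeded the next chain, Itgb5, in every library.

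The make-up of the receptors was compared as each chain's share of the summed FPKM of its kind, which does not depend on how a library is scaled. The summed FPKM of the 5 beta chains that pair with alpha v was 76.9 ± 5.88 in controls and 111 ± 5.24 in knockouts (SD, n = 3; exact permutation p = 0.1). That of the 5 alpha chains was 15.6 ± 1.94 and 25.1 ± 2.08 (exact permutation p = 0.1).

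Itgb3 made up 3.79%, 3.89% and 3.06% of the beta sum in controls and 6.34%, 7.84% and 5.28% in knockouts. Every knockout share was above every control share. Itgb5 made up 37.4%, 38.2% and 32.4% in controls and 29.6%, 29.4% and 33.9% in knockouts, which overlapped. Itgb1 held 57.5% to 64.3% in controls and 60.6% to 63.9% in knockouts.

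Among alpha chains, Itga6 took 12.0%, 6.21% and 8.83% in controls and 14.9%, 14.9% and 14.0% in knockouts, again with no overlap. Itga5 took 40.3%, 42.4% and 32.6% in controls and 25.9%, 26.4% and 35.2% in knockouts, and Itgav 21.4% to 31.9% and 28.1% to 39.9%. Both overlapped between groups. For the shares of Itgb3 and Itga6 a two-sided exact permutation test gave p = 0.1, the smallest possible, and 0.4 once adjusted over the 10 shares compared, so none passed.

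**Figure D2:**
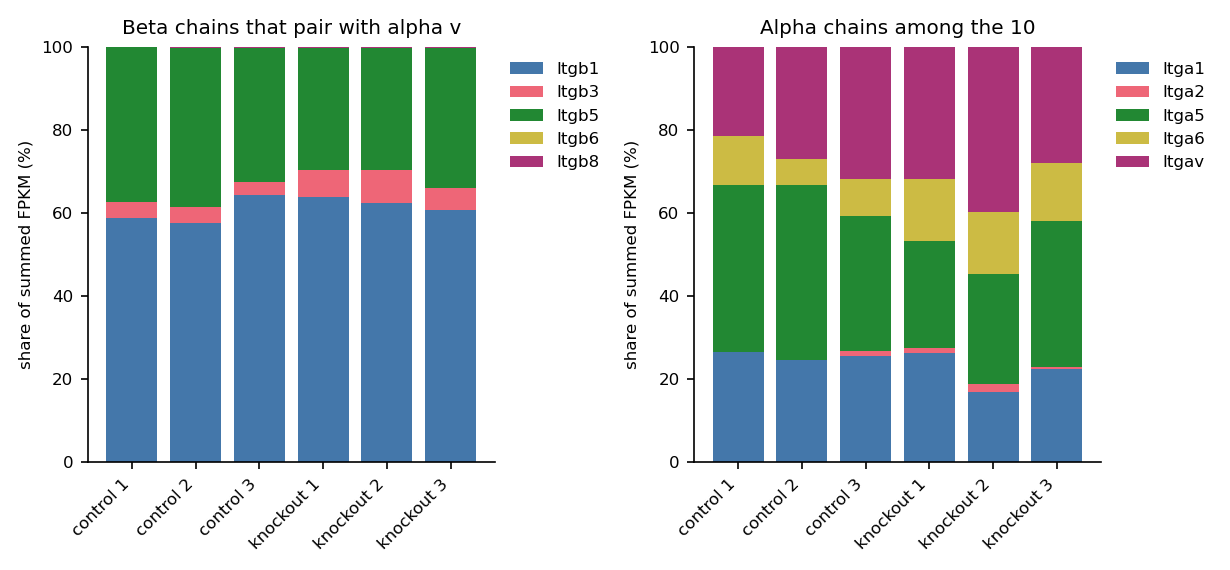
Share of each chain (%, y axis) in the summed FPKM of the 5 beta chains that pair with alpha v (left) and of the 5 alpha chains (right), 1 bar per library. Itgb3 is 3.06% to 3.89% of the beta sum in controls and 5.28% to 7.84% in knockouts; Itgb6 and Itgb8 are too thin to see.

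As ratios within a library, Itga6 was 3.63%, 2.39% and 2.84% of the FPKM of Itgb1 in controls and 5.12%, 5.62% and 5.15% in knockouts. Itgb3 was 10.1%, 10.2% and 9.45% of Itgb5 in controls and 21.4%, 26.7% and 15.6% in knockouts. In both pairs each knockout exceeded each control. Itga1 against Itgb1 (8.02% to 9.42% in controls, 6.32% to 8.96% in knockouts) and Itga5 against Itgb1 (10.5% to 16.3% and 8.85% to 12.9%) overlapped, as did Itgav against Itgb1, Itgb3 or Itgb5.

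Sequence before the start of the gene is shown for the called chains that have an entry among the RefSeq promoters (GRCm38.p6). Entries existed for 8 of the 10 chains, and not for Itga6 and Itgb3. The 250 bases before each start are given 5′ to 3′ on the strand of the gene, at chr2:83724147-83724396 (plus) for Itgav and chr8:128685404-128685653 (plus) for Itgb1, with matches to 1 of 5 motifs in capitals.
Itgav: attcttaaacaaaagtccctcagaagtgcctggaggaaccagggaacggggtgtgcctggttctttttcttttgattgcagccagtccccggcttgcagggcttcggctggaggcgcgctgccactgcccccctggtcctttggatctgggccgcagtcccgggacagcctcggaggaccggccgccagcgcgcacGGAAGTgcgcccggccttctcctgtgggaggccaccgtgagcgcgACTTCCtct
Itgb1: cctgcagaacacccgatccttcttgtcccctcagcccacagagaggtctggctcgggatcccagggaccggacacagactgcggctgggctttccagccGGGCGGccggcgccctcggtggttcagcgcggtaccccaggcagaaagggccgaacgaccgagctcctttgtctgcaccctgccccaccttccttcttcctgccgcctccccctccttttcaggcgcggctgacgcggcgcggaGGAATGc
The motifs searched on both strands were TGANTCA (AP-1), the NF-kB motif, GGAATG (TEAD), GGAAGT (ETS) and GGGCGG (SP1). In Itgav the capitals are ETS letters, 54 bases before the start and, on the opposite strand, 9 bases before it. In Itgb1 they are SP1 letters 151 bases before the start and TEAD letters 7 bases before it. No match overlapped another. ETS letters occur in 19.7%, SP1 letters in 32.7% and TEAD letters in 12.6% of all 32851 such windows. AP-1 and NF-kB letters, found in 6.75% and 7.25% of windows, were in none of the windows of the 8 chains. A match describes the letters only and was not tested as a site.

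Other integrin chains were measured beside these. Among the other matrix chains 1 of 5 tested rose, where 14.1% of all tested genes did. It was Itga4, whose product on leukocytes binds fibronectin and VCAM-1. Itga4 measured 0.637, 1.17 and 1.52 FPKM in controls and 6.36, 4.23 and 5.14 FPKM in knockouts (log2 fold change 1.86 ± 0.27, limma adjusted p = 0.00151). Itga9, the most abundant of that list, measured 5.21, 5.75 and 9.36 FPKM in controls and 9.16, 10.1 and 11.0 FPKM in knockouts and was not called (0.58 ± 0.22, adjusted p = 0.0863). Without control 3 it was called (0.82, adjusted p = 0.0136).

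Of 9 chains of leukocytes and platelets, 7 reached the mean of 0.5 FPKM and rose. Among those 7, Itgb2l and Itgax reached it only through the knockouts, and Itgad and Itgae, low in both groups, did not, so neither this count nor a median over the 7 describes the list. Itgam, the alpha chain of the myeloid complement receptor, measured 0.653, 0.484 and 3.78 FPKM in controls and 17.4, 12.9 and 11.8 FPKM in knockouts (limma adjusted p = 0.00197). Its beta chain Itgb2 measured 6.25, 8.92 and 15 FPKM in controls and 37.6, 38.7 and 40.6 FPKM in knockouts (adjusted p = 8.40e-04). Itgb7, the beta chain of gut-homing lymphocyte integrins, measured 0.336, 0.698 and 0.930 FPKM in controls and 6.76, 5.93 and 4.38 FPKM in knockouts (adjusted p = 4.25e-04). Itgb2l was listed at 0 in every control and at 1.48, 1.65 and 1.49 FPKM in knockouts. Control 3 was the highest control for all 3 of Itgam, Itgb2 and Itgb7.

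**Figure D3:**
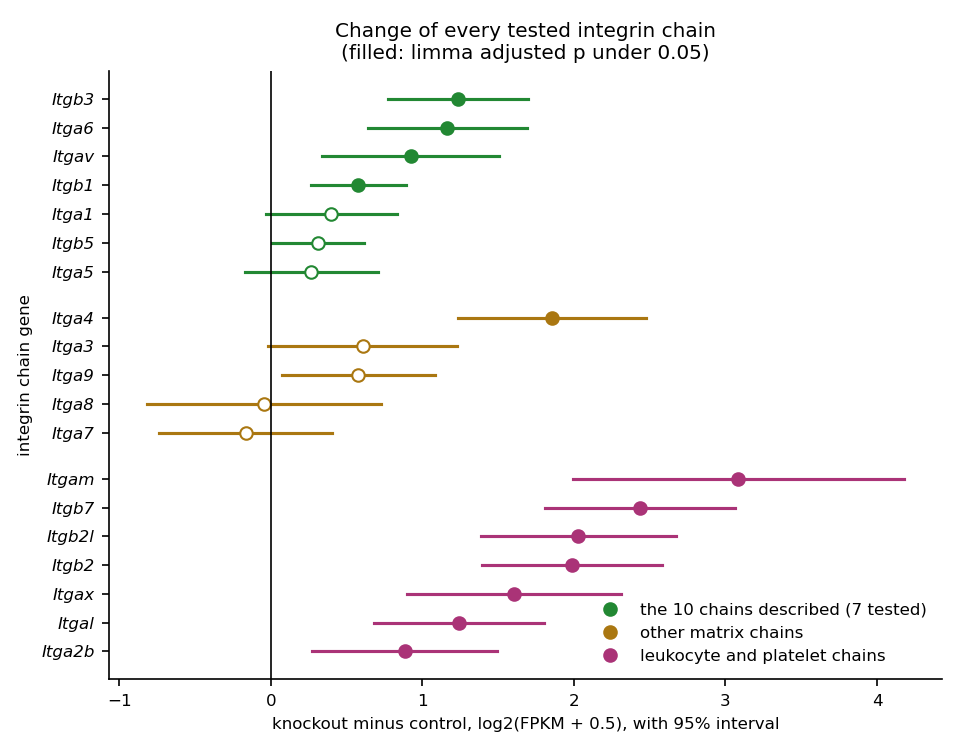
Difference of knockout minus control in log2(FPKM + 0.5) (x axis) with its 95% interval for the 19 tested integrin chains, filled where called. Itgb3 is at 1.24 and Itga5 at 0.27, and the leukocyte and platelet chains run from 0.88 to 3.09.

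Ligands of these receptors were measured as well. Of 30 tested matrix ligands, 21 were higher and 1 was lower, with a median log2 fold change of 1.22. The fibrillar collagen Col1a1 measured 1.67, 3.18 and 12.8 FPKM in controls and 28.9, 36.8 and 60.5 FPKM in knockouts (limma adjusted p = 0.00392), and Col3a1 8.97, 8.90 and 21.2 FPKM and 58.0, 64.5 and 95.3 FPKM (adjusted p = 7.32e-04). The thrombospondins, which bind several integrins and latent TGF-beta, rose too, with log2 fold changes of 2.68 ± 0.27 for Thbs2 and 2.46 ± 0.34 for Thbs1. Thbs2, like Tgfb3 below, reached the mean of 0.5 FPKM only through the knockouts. Control 3 was the highest control for Col1a1, Col3a1 and Thbs1.

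Ligands of the called chains can be set beside them. Among laminin chains, which the Itga6 pair binds, Lamb1 rose with a log2 fold change of 1.60 ± 0.25 and Lamc1 with 1.38 ± 0.25 (limma adjusted p = 0.00199 and 0.00393). Fn1, fibronectin, measured 304, 270.3 and 365 FPKM in controls and 512, 469 and 517 FPKM in knockouts (0.68 ± 0.15, adjusted p = 0.00955, and 0.0541 without control 2). Vtn, vitronectin, measured 1507, 1722 and 1572 FPKM in controls and 1674, 1537 and 1987 FPKM in knockouts and was not called (0.11 ± 0.16, adjusted p = 0.668). The basement membrane collagen Col4a1 had a log2 fold change of 2.15 ± 0.24 (adjusted p = 3.98e-04). The 1 ligand that fell was Vwf, the platelet-tethering protein of endothelium, at 1.26, 1.76 and 1.34 FPKM in controls and 0.325, 0.466 and 0.369 FPKM in knockouts (adjusted p = 0.0141, and 0.0672 without control 2).

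Of 7 tested genes of latent TGF-beta and the proteins that hold it, 3 rose and 1 fell. Tgfb3 measured 0.654, 0.407 and 0.241 FPKM in controls and 2.004, 6.85 and 2.84 FPKM in knockouts (log2 fold change 2.102 ± 0.40, limma adjusted p = 0.00471). Tgfb1 measured 4.60, 7.95 and 12.5 FPKM in controls and 14.9, 14.3 and 19.7 FPKM in knockouts (1.01 ± 0.31, adjusted p = 0.0373). The call of Tgfb1 was lost without any 1 library but control 3 (log2 fold changes of 0.66 to 1.10). With all 6 libraries it was lost with no filter on low values (adjusted p = 0.0663 in limma), with no mean-variance trend (0.0656) and with equal summed FPKM (0.0533). Nrros, which tethers latent TGF-beta on myeloid cells, rose by 0.94 ± 0.20 log2 units (adjusted p = 0.00839). Ltbp4, which anchors it in the matrix, fell from 11.0, 9.56 and 16.3 FPKM to 3.10, 5.46 and 5.92 FPKM (adjusted p = 0.00825).

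Of 34 tested proteins that link integrins to the cytoskeleton, 12 rose and 3 fell, with a median log2 fold change of 0.20. Those called higher numbered 8 without control 1 and 8 without control 2. The largest rises were those of Parvg (log2 fold change 2.32 ± 0.32), Apbb1ip (1.99 ± 0.28), the actin cross-linker Flna (1.94 ± 0.25) and Fermt3 (1.60 ± 0.21), with limma adjusted p of 6.92e-04 to 0.00109. Parvg and Fermt3 are known as the blood cell forms of parvin and of kindlin, and Apbb1ip is the gene of the Rap1 effector RIAM. Talin, Tln1, which switches integrins on, measured 10.2, 9.67 and 16.7 FPKM in controls and 23.9, 19.3 and 26.6 FPKM in knockouts (0.94 ± 0.22, adjusted p = 0.0139). The call of Tln1 was lost without control 1 or control 2 (log2 fold changes of 0.80 to 1.18 over all alternatives). The kindlin of most solid tissues, Fermt2, and the linked kinase Ilk were not called (0.19 ± 0.13 and 0.25 ± 0.16). Bcar1, a scaffold at adhesions, fell from 13.4, 13.9 and 12.1 FPKM to 8.56, 6.56 and 7.59 FPKM (adjusted p = 0.00848).

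Markers of the cell types that carry these chains moved between the groups, and their part in the integrin changes was not tested. Of 16 endothelial markers 13 fell, with the summed level at 174 to 266 FPKM in controls and 41.2 to 53.7 FPKM in knockouts. Without control 3, 2 of them, Stab2 and Emcn, were called higher. Cdh5 itself, not on that list, measured 12.7, 10.3 and 23.1 FPKM in controls and 18.8, 18.0 and 16.3 FPKM in knockouts. Cdh5 was not called (log2 fold change 0.28 ± 0.26, limma adjusted p = 0.469), except without control 3 (0.61, adjusted p = 0.0349). Of 15 stellate cell and fibroblast markers 7 rose, with sums of 220.2 to 238 and 341 to 413 FPKM. Acta2, the actin of activated stellate cells and smooth muscle, measured 2.80, 2.73 and 2.26 FPKM in controls and 9.90, 16.1 and 27.4 FPKM in knockouts. Of 13 Kupffer cell and macrophage markers 8 rose, and 11 without control 3, with sums of 799 to 1356 and 1588 to 2009 FPKM. All 13 neutrophil and monocyte markers measured rose, with sums of 37.7 to 77.3 and 1796 to 1900 FPKM.

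Of 8 tested platelet markers 6 rose (2 to 6 when 1 library was left out), with sums of 4.35 to 15.6 and 27.1 to 38.0 FPKM, and Pf4, the platelet chemokine, measured 2.03, 3.17 and 4.74 FPKM in controls and 12.8, 18.5 and 17.7 FPKM in knockouts. Of 10 lymphocyte markers 5 rose, with sums of 5.34 to 10.3 and 21.8 to 40.9 FPKM. Of 7 tested bile duct markers 2 rose and 1, Krt19, fell, and their sums overlapped (37.9 to 50.6 and 45.9 to 57.5 FPKM). The call of Krt19 was lost without any 1 control, without knockout 1 and, with all 6 libraries, with no filter on low values, no mean-variance trend or a pseudocount of 0.1 (limma adjusted p = 0.0652, 0.0511 and 0.0794). Of 11 hepatocyte markers 5 fell (3 to 5 when 1 library was left out), with sums of 16495 to 22258 and 10734 to 12690 FPKM. No list had a member at 0 in all 6 libraries except the ligands (Edil3). The summed level of the 10 integrin chains was 88.0 to 101 FPKM in controls and 128 to 143 FPKM in knockouts. Sums of stellate, myeloid, platelet and lymphocyte markers were also higher in knockouts, and those of endothelial and hepatocyte markers lower. Within the groups the order of the sums was mixed, and what it reflects was not tested. Knockout 2 had the highest integrin sum of the knockouts and also their highest endothelial, hepatocyte and Kupffer cell sums (53.7, 12690 and 2009 FPKM). It was not the highest knockout for stellate, neutrophil, platelet or lymphocyte sums. Control 3 had the highest integrin and endothelial sums of the controls (101 and 266 FPKM) and their lowest hepatocyte sum (16495 FPKM). Its stellate, Kupffer cell, neutrophil, platelet and lymphocyte sums were also the highest of the controls (238, 1356, 77.3, 15.6 and 10.3 FPKM).

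**Figure D4:**
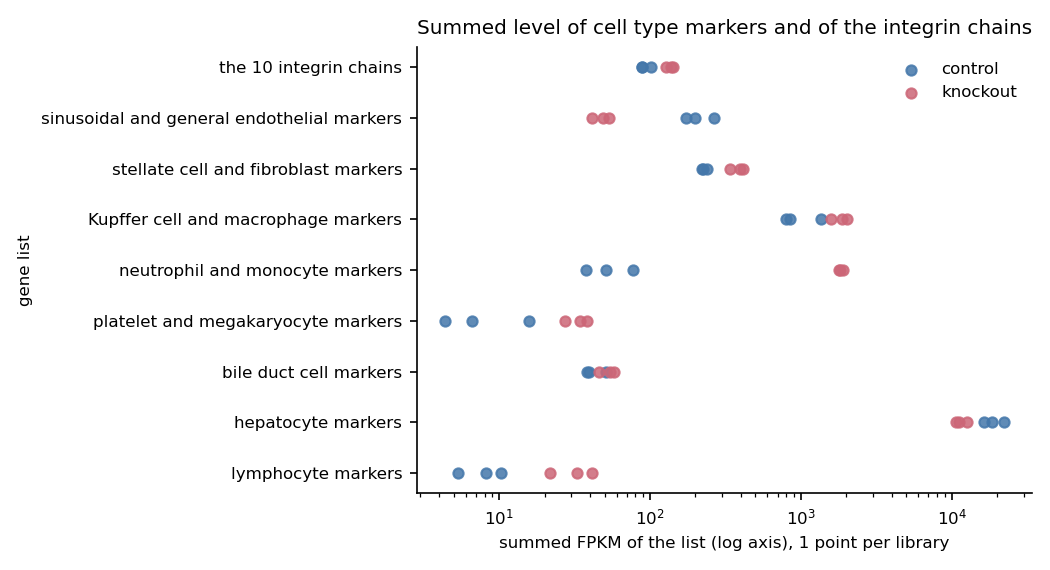
Summed FPKM (log axis) of the 10 integrin chains and of 8 lists of cell type markers, 1 point per library (control blue, knockout red). Groups separate for every list but the bile duct markers, and endothelial and hepatocyte markers are lower in knockouts.

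The genes whose pattern over the 6 libraries was most like that of each called chain were found by the root mean square difference of log2(FPKM + 0.5), taken relative to the control mean, among 10342 genes. Nearest to Itgb3 were Dnase2b (0.0507 log2 units) and Ednra, the endothelin receptor A (0.0777). Ednra measured 1.996 ± 0.314 FPKM in controls and 5.65 ± 1.40 FPKM in knockouts (SD, n = 3). Nearest to Itga6 were Galnt6 (0.0803) and Lrrfip1 (0.111), nearest to Itgav was Mcm4 (0.0839), and nearest to Itgb1 was Picalm (0.0625). Mcm4, a subunit of the replicative helicase, was not itself called (log2 fold change 0.82 ± 0.29, limma adjusted p = 0.0643), except without control 3 (1.05) and with library weights. Picalm, an adaptor of clathrin, was called (0.57 ± 0.13, adjusted p = 0.0120), except without control 2 (0.51, adjusted p = 0.06002) and with equal summed FPKM.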

How the data were processed

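Gene expression was measured by RNA-seq in 6 whole mouse livers, 3 control and 3 knockout. Per the labels' protocols, RNA was isolated and TruSeq v2 libraries were sequenced. The submitters' processing notes name build mm9 and the programs Cuffnorm 2.2.1, Cuffdiff 2.2.1, TopHat2 2.1.0 and Trimmomatic 0.33. Which gene models were used is not stated there. The authors deposited FPKM per gene, 1 column per library, and these values were used as they stand.

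Alb, listed at 0 in every control, was left out. Genes averaging 0.5 FPKM or more (11842) entered a two-sided limma 3.58.1 test with a mean-variance trend, in R 4.3.3, of knockout against control log2(FPKM + 0.5). The pseudocount understates changes of low genes. Calls were made at a Benjamini-Hochberg adjusted p under 0.05 over all tested genes. Exact permutation tests used scipy 1.17.1 and figures matplotlib 3.10.9. On simulated data the procedure was tested before use.

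Relative depth was taken from the commonest ratio of values below 1 FPKM between libraries. Steps were sought by taking the lowest value above 0 as 1 to 60 steps, with a tolerance of 0.06. Positions are from GENCODE M21 on GRCm38, not the authors' build.

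The members, gene lists and tests were chosen with earlier results of these data known. The genes named are the 10 chains, Map3k7, up to 4 called genes with the largest change in each of 5 lists (the 2 most abundant where fewer than 2 were called), and the 2 genes nearest in pattern to each called chain. Of the latter, 2 are not reported here. Itga2b, Fn1, Vtn, Col4a1, Lamb1, Lamc1, Vwf, Tln1, Fermt2, Ilk, Bcar1, Acta2, Pf4, Stab2, Emcn, Cdh5 and Krt19 were named after their values were seen, and the steps and the ratios within a library were chosen likewise. The 16 alternatives were other pseudocounts, filters, scalings and variance models, weighted libraries, a block for the replicate number, and 6 fits that each omit 1 library.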

Additional observations from a re-analysis of the deposited data

How the results depend on the processing

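Itgb3 and Itga6 were called higher, and Itga1, Itga5 and Itgb5 were not called, under all 16 alternatives. No chain of the 7 tested changed direction. Chains called higher numbered 2 to 4, and genes called lower 943 to 1497, when 1 library was left out. Chains called higher numbered 2 when every library was rescaled to the same summed FPKM; the cause was not tested. That rescaling shifted the all-gene median by -0.11 log2 units. Relative to that shift Itgav was at 0.92 and Itgb1 at 0.56, with limma adjusted p of 0.0573 and 0.0596 for the changes themselves. It also moved the share of calls that were higher from 52.1% to 39.5%. Library numbers are shared by the groups but do not pair the samples. Deviations of same-numbered libraries correlated across genes at -0.010, -0.00012 and 0.0015. With a replicate block, 1575 genes were called higher and 1385 lower, against 1669 and 1534, and 4 chains were called higher. Directions that turned belonged to values that passed no test. The log2 fold change of Map3k7 was -0.04, 0.0029 with median-ratio scaling and -0.099 to 0.062 when 1 library was left out (the latter without knockout 3). That of Vtn was -0.012 with equal summed FPKM. With 0.5 FPKM added to each chain, the knockout minus control difference in share was -0.135 percentage points for Itgb8 and -0.144 points for Itga2. Leaving out 1 library gave -0.0045 (without control 1) to 0.0991 points for Itgb8. Depth limits Itga2 and Itgb8, which lay at 0 to 5 steps, and Itgb6, which was above 0 only in control 2.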
